A study of Drosophila melanogaster with 8 samples.

Results

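Genes of the CPR family of cuticle proteins were compared between embryonic cells in which an enhancer of ovo was active and all cells of the same embryos. The members were found by name: every gene of the deposited table whose symbol begins with Cpr and a digit, Lcp, Ccp84A, Edg and a digit, Pcp or Acp65A. This rule gave 97 of the 15182 fly genes listed. All 97 had a value above 0 in at least 1 library, and 65 reached 1 FPKM (fragments per kilobase of transcript, scaled to the size of the library) in at least 4 of the 8 libraries and were tested. The names are the criterion: the sequence of the chitin-binding domain that defines the family was not examined here.

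The larval cuticle of Drosophila is a layered matrix of chitin and protein that epidermal and tracheal cells secrete on their apical side in the second part of embryonic life. CPR proteins are structural proteins of this matrix and carry the Rebers and Riddiford consensus, a stretch that binds chitin. The gene names record how they were found: Lcp stands for larval cuticle protein, Pcp for pupal cuticle protein, Acp for adult cuticle protein, Ccp84A for a cuticle gene cluster at band 84A and Edg for ecdysone-dependent genes. Edg91 encodes a glycine-rich cuticle protein. For the other members no role beyond that of a cuticle protein is given here. The gene ovo, also called shavenbaby, encodes the transcription factor that directs the making of trichomes, the hairs of the larval cuticle, and E10 is one of its enhancers.

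The GFP-positive group held 4 libraries from embryos carrying the transgene E10::EGFP, sorted for EGFP under 488 nm excitation; the limits of that gate came from cells of wild type embryos. The all-cell group held 4 libraries, each made from 50000 cells of the parent scatter gate of the same sort, so that EGFP-positive cells are among them. GFP-negative is the name given to this group in the design text, against the sample labels, which are followed here. Both groups came from eggs laid within 1 h and kept at 25 °C for some 11 h, when the embryos were at early stage 14, and 5 ng of total RNA was amplified with ERCC spike-in RNA added. Each of 4 independent sorts gave 1 library of each group. The EGFP-positive gate defines cells by the activity of 1 enhancer and not by a tissue, and a lower share of expressing cells and a lower level per cell cannot be told apart in such bulk libraries. Unless the sort is named as a block, p-values measure the spread between the libraries within each group, 1 per sort, and leave the pairing aside.

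The gene that the enhancer controls, ovo, stood at 320, 239, 219 and 268 FPKM in GFP-positive libraries 1 to 4, against 56.0, 32.1, 46.7 and 31.7 FPKM in all-cell libraries 1 to 4. All 9 epidermal markers tested were higher in GFP-positive cells and 0 lower, as were all 9 tracheal markers, while 8 of 8 gut, 7 of 7 neuronal, 6 of 6 muscle, 4 of 4 fat body and 4 of 4 neuroblast markers were lower. Of 5 hemocyte markers tested, 3 were lower and 0 higher. The salivary gland list, with 2 higher and 2 lower of 5, was divided. Over all genes tested, 11.6% were called higher and 38.7% lower. The 9 epidermal markers include ovo, the gene whose enhancer defined the gate, so that list is not independent of the sort. No marker on these lists was at 0 in all libraries. The defining markers elav, of neurons, and Mhc, of muscle, still stood at 50.8 to 130 FPKM and 14.6 to 23.6 FPKM in GFP-positive libraries. FPKM summed to between 482441 and 561280 per library, and 1 fragment on a 1 kb transcript was worth an estimated 0.1075 to 0.1725 FPKM in GFP-positive and 0.0825 to 0.1025 FPKM in all-cell libraries.

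In each group 1 library was the lowest for more tested members than any other library. The FPKM of the 97 members summed to 3420, 2744, 1352 and 460 in GFP-positive libraries 1 to 4, against 523, 400, 158 and 542 in all-cell libraries 1 to 4. As a share of all fly FPKM these sums were 0.676%, 0.578%, 0.294% and 0.0956% in GFP-positive libraries, against 0.0975%, 0.0787%, 0.0326% and 0.0998% in all-cell libraries. GFP-positive library 4 thus lay inside the range of the all-cell libraries, and below the all-cell library of its own sort. Over the 65 tested members this library was the lowest of its group for 33, and all-cell library 3 was the lowest of its group for 43; over all 10943 genes tested the same libraries were lowest for 21.2% and 50.5%. The epidermal markers did not show the same order: their FPKM summed to 2652, 2009, 2207 and 2092 in GFP-positive libraries and to 362, 160, 239 and 225 in all-cell libraries. The tracheal markers did have their lowest sums in these libraries. Their sum was 3384 FPKM in GFP-positive library 4, with a group maximum of 5190 FPKM. In all-cell library 3 it was 630 FPKM, with a group maximum of 1214 FPKM. Of the 9 tracheal markers, 5 were lowest of their group in GFP-positive library 4. Neither the member sum of GFP-positive library 4 nor that of all-cell library 3 was flagged as outlying in its group. Nothing in the labels sets sort 4 apart, and the cause was not tested.

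**Figure D1:**
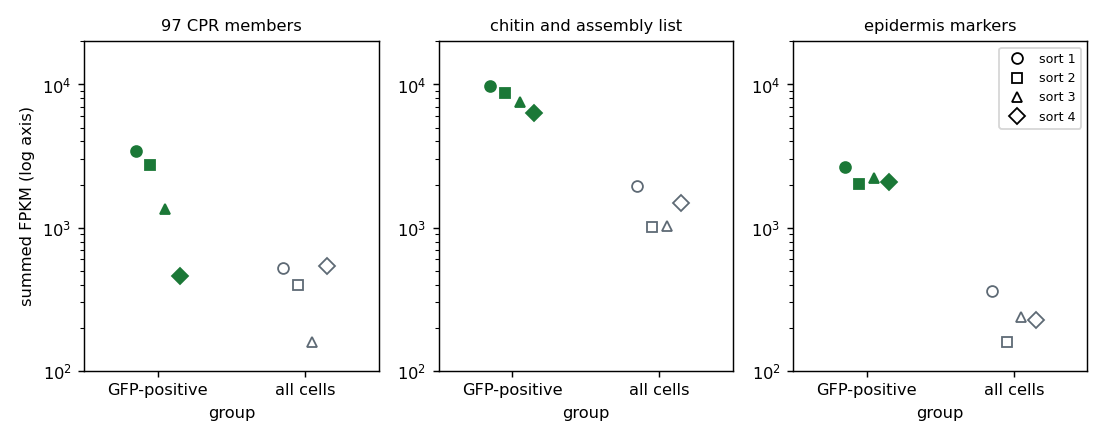
Summed FPKM (log axis) of the 97 CPR members, of the chitin and cuticle assembly list and of the 9 epidermal markers; each point is a library, its shape gives the sort, and GFP-positive libraries stand left of all-cell libraries. The member sum of GFP-positive library 4 is 460 FPKM, within the range of the all-cell libraries, whereas its epidermal marker sum of 2092 FPKM is close to those of the other GFP-positive libraries.

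The comparison of GFP-positive with all cells found more rises than falls among the CPR genes. Among the 65 members tested with limma, 20 (30.8%) rose in GFP-positive cells at an adjusted p under 0.05, 4 (6.15%) fell, and 41 did not pass the test. Over all 10943 genes tested, 11.6% were called higher and 38.7% lower. The median log2 fold change, on the scale of log2(FPKM + 1), was 0.98 for the tested members and -0.47 for all tested genes. Of the 65, 6 had at most 1 all-cell library at 1 FPKM, so that they entered the test mainly through GFP-positive cells, and 3 had at most 1 such GFP-positive library. The 6 include Ccp84Ae, Ccp84Ad and Cpr97Ea, which are among the 20 called higher. The 3 are Cpr50Ca, Cpr72Eb and Cpr72Ec, which are among the 4 called lower and entered the test mainly through all cells. When all 97 members were fitted without the filter, 17 were called higher and 4 lower, against 9.11% and 31.7% of 13661 genes, and the member median was 0.17. The 32 untested members were low throughout, with a highest single value of 5.71 FPKM, for Lcp65Ad in all-cell library 4.

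The counts depended on which libraries were fitted. Without GFP-positive library 4, limma called 31 members higher and 4 lower, against 11.5% and 38.5% of all genes. Without all-cell library 3 it called 12 higher and 3 lower, against 10.3% and 40.3%. Leaving out both gave 27 higher and 4 lower, against 10.8% and 40.8%. Leaving out GFP-positive library 1 gave 13 higher and 4 lower, against 10.2% and 37% of all genes, and leaving out GFP-positive library 2 gave 12 higher and 4 lower, against 10.2% and 32.7%. Leaving out GFP-positive library 3 gave 20 higher and 2 lower, against 11% and 35.4% of all genes. Without all-cell library 1, 2 or 4 the counts were 19, 18 and 18 higher, against 11.2%, 9.6% and 10.6% of all genes, and 4, 2 and 3 lower, against 32.6%, 34.1% and 31.1%. Without both libraries of sort 1, 2, 3 or 4 the counts were 12, 7, 10 and 31 higher, against 9.92%, 8.16%, 9.98% and 10.6% of all genes, and 3, 2, 3 and 2 lower, against 30.1%, 27.2%, 36.9% and 30.9%. With the sort as a block 28 members were higher and 5 lower, against 13.2% and 44.6%. A filter at 5 FPKM left 24 members, of which 15 were higher and 1 lower, against 15.2% and 45.5% of 7292 genes.

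Scaling moved the split of higher and lower calls as well. TMM-like scaling brought the median of all genes to -0.02 and gave 28 members higher and 2 lower, against 21% and 18.8% of all genes. Quantile normalization gave 30 higher and 2 lower, against 18.6% and 23.4%, and upper quartile scaling 23 higher and 2 lower, against 16% and 27.3%. Scaling by the ERCC sum brought the median of all genes to -1.26 and gave 11 members higher and 7 lower, against 2.82% and 52.2%. Of the 20 rises 10 were called under that scaling, and those of Cpr11A, Lcp9, Cpr62Bb, Cpr62Bc, Cpr66D, Cpr76Bc, Cpr78Cc, Cpr97Ea, Cpr97Eb and Ccp84Ad were not, with log2 fold changes of 0.24 to 1.08 and limma adjusted p-values of 0.0930 to 0.715. Measured from the median of all genes, the member median was 1.45 for the deposited values, 1.32 under TMM-like and 1.5 under ERCC scaling. The filter moved this difference more, to 0.53 for all 97 members without a filter and 2.27 for the 24 left at 5 FPKM.

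A small group of genes held a large share of the FPKM of the family. The 6 highest members of each library held 51.9% to 77.8% of the members' summed FPKM in GFP-positive libraries and 47.5% to 56.8% in all-cell libraries. Cpr65Ea (CG8640, 3L:7079156-7079706 on dm3) stood at 648, 470, 227 and 27.1 FPKM in GFP-positive libraries 1 to 4, against 47.8, 36.8, 5.07 and 45.2 FPKM in all-cell libraries 1 to 4. GFP-positive libraries 1 to 3 were above every all-cell library, and library 4 was below 3 of them. Means were 343 ± 272 FPKM in GFP-positive cells and 33.7 ± 19.7 FPKM in all cells (SD, n = 4 each), and the log2 fold change was 2.97 with an SE of 0.92 (limma adjusted p = 0.0198). Without GFP-positive library 4 its log2 fold change was 3.94 (limma adjusted p = 8.1e-04), and without all-cell library 3 it was 2.26 (limma adjusted p = 0.0526). The call was also lost without GFP-positive library 1 or 2, with a highest limma adjusted p of 0.0608.

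Cpr51A (CG10112, 2R:10400047-10402713) was the member with the highest mean in both groups, at 472 ± 316 FPKM in GFP-positive cells and 96.6 ± 50.1 FPKM in all cells (SD, n = 4 each). It stood at 826, 610, 352 and 98.2 FPKM in GFP-positive libraries 1 to 4, against 127, 77.2, 35.6 and 147 FPKM in all-cell libraries 1 to 4. As for Cpr65Ea, the first 3 GFP-positive libraries were above every all-cell library and the fourth was not. The log2 fold change of Cpr51A was 2.09 with an SE of 0.61 (limma adjusted p = 0.0144). Without GFP-positive library 4 it was 2.71 (limma adjusted p = 7.2e-04), and the call was lost without both libraries of sort 2 (1.80, limma adjusted p = 0.0946) or of sort 3 (1.70, limma adjusted p = 0.0739). The locus of Cpr51A overlaps that of CG30197, so that fragments of these genes are not fully separable.

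The larval cuticle protein genes Lcp65Ag1, Lcp65Ag2 and Lcp65Ag3, neighbours on chromosome arm 3L, had the same order of GFP-positive libraries. Lcp65Ag1 (CG10530, 3L:6127797-6128370) stood at 373, 259, 131 and 10.99 FPKM in GFP-positive libraries, against 29.2, 34.5, 3.06 and 12.4 FPKM in all-cell libraries. Lcp65Ag3 (CG18779, 3L:6123485-6124086) stood at 325, 211, 115 and 7.56 FPKM in GFP-positive libraries, against 22.5, 27.3, 2.41 and 11.7 FPKM in all-cell libraries. In sort 4 all 3 genes were lower in the GFP-positive library than in its all-cell partner. Their log2 fold changes were 2.84, 2.81 and 2.80 for Lcp65Ag1, Lcp65Ag2 and Lcp65Ag3 (limma adjusted p = 0.0318, 0.0332 and 0.0379). Each of these 3 calls was lost on leaving out GFP-positive library 1, 2 or 3 or all-cell library 3 or 4, with a highest limma adjusted p of 0.105 among these fits. Over the 8 fits that left out 1 library their log2 fold changes lay between 2.13 and 3.94, the highest being those without GFP-positive library 4, at 3.91, 3.87 and 3.94 for Lcp65Ag1, Lcp65Ag2 and Lcp65Ag3 (limma adjusted p = 8.3e-04, 9.8e-04 and 6.7e-04). Lcp65Ag1 and Lcp65Ag2 differed by at most 15.2% in any library, so their fragments may be shared between near-identical copies.

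Members of the Ccp84A cluster and the Cpr64A group also rose in GFP-positive cells. Ccp84Ag (CG2342, 3R:2512450-2513761) stood at 59.4, 76.8, 19.4 and 8.81 FPKM in GFP-positive libraries, against 10.1, 2.96, 0.958 and 2.31 FPKM in all-cell libraries, a log2 fold change of 2.92 with an SE of 0.66 (limma adjusted p = 0.0038). Cpr64Ab (CG15007, 3L:4210880-4211540) stood at 118, 160, 69.1 and 24.9 FPKM in GFP-positive libraries, against 17.8, 10.9, 3.65 and 10.3 FPKM in all-cell libraries. The 2 groups of libraries did not overlap for Cpr64Ab, which had a log2 fold change of 2.88 with an SE of 0.54 (limma adjusted p = 0.00129). Its neighbour Cpr64Ad (CG1259) averaged 75.2 ± 54.2 FPKM in GFP-positive cells and 10.1 ± 9.07 FPKM in all cells (SD, n = 4 each), with a log2 fold change of 2.61 (limma adjusted p = 0.00956), and of 3.34 without GFP-positive library 4 (limma adjusted p = 4.3e-04). The groups of Cpr64Ad overlapped, and its call was lost without both libraries of sort 2 or of sort 3. Ccp84Ae (CG1330) stood at 8.13, 14.5, 5.38 and 5.64 FPKM in GFP-positive libraries, against 1.46, 0, 0.719 and 0 FPKM in all-cell libraries. Its groups did not overlap (log2 fold change 2.62 ± 0.39 SE, limma adjusted p = 3.2e-04). With only 1 all-cell library at 1 FPKM, Ccp84Ae entered the test mainly through GFP-positive cells.

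Further members that rose were at lower levels than Cpr65Ea or Cpr51A. Cpr49Ag (CG8511, 2R:8295341-8296038) stood at 37.1, 25.3, 14.7 and 14.2 FPKM in GFP-positive libraries, against 2.67, 3.98, 1.15 and 4.15 FPKM in all-cell libraries, so every GFP-positive library was above every all-cell library. Its log2 fold change of 2.55 (SE 0.37) had the lowest limma adjusted p among the members, 2.5e-04. Cpr11A (CG2560, X:12381006-12383484) stood at 72.8, 48.8, 42.5 and 37.8 FPKM in GFP-positive libraries, against 22.5, 12.4, 13.1 and 11.5 FPKM in all-cell libraries. Here too the groups did not overlap, and the fourth GFP-positive library lay close to the second and the third (log2 fold change 1.70 ± 0.25 SE, limma adjusted p = 2.8e-04). With ERCC scaling the log2 fold change of Cpr11A was 0.79 and not called (limma adjusted p = 0.184). Lcp9 (CG16914) stood at 18.1, 9.10, 4.73 and 12.7 FPKM in GFP-positive libraries, against 3.65, 2.81, 1.49 and 1.23 FPKM in all-cell libraries, with a log2 fold change of 1.82 (limma adjusted p = 0.00274). Cpr62Bc (CG1919) was highest in GFP-positive library 4, at 36.6 FPKM; the rest of that group lay at 10.6 to 14.2 FPKM and all cells at 2.04 to 9.22 FPKM (log2 fold change 1.55, limma adjusted p = 0.0102).

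**Figure D2:**
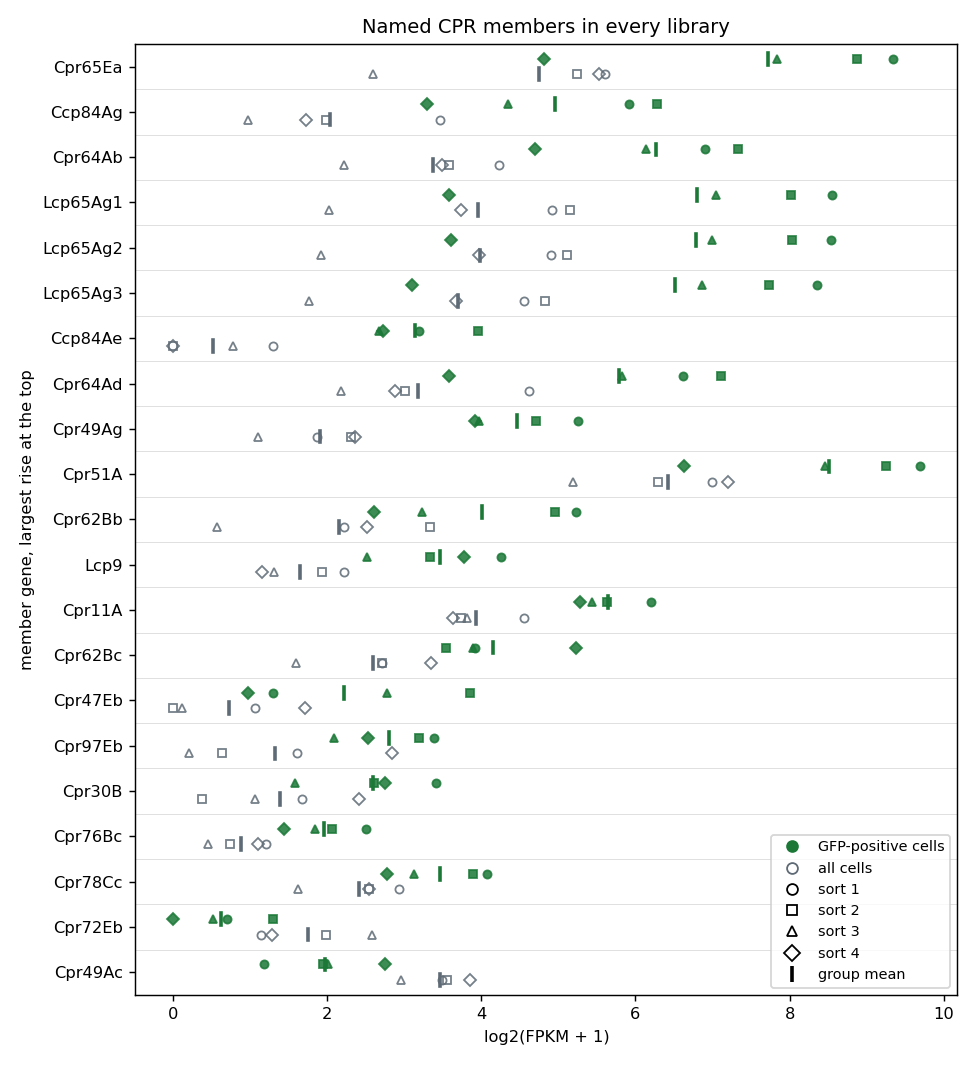
Values of log2(FPKM + 1) of 21 CPR members in every library, with GFP-positive libraries filled and above the all-cell libraries in each row, shapes for the sort and a bar for each group's mean of the log values. Sort 4 is the lowest GFP-positive library for Cpr65Ea, Cpr51A and the 3 Lcp65Ag genes and the highest for Cpr62Bc.

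The other members called higher had log2 fold changes of 1.06 to 1.85. Cpr62Bb rose by 1.85 log2 units (limma adjusted p = 0.0374), Cpr97Eb by 1.48 (limma adjusted p = 0.0378), Cpr76Bc by 1.08 (limma adjusted p = 0.0134) and Cpr78Cc by 1.06 (limma adjusted p = 0.0304). Cpr66D (1.75), Ccp84Ad (1.51) and Cpr97Ea (1.39), outside the naming rule and named to complete the list, had limma adjusted p-values of 0.0262, 0.0120 and 0.0117. Cpr62Bb is listed with 2 isoforms: Cpr62Bb-RA averaged 17.1 ± 14.5 FPKM in GFP-positive cells and 3.01 ± 2.59 FPKM in all cells, and Cpr62Bb-RB averaged 2.96 ± 1.99 FPKM in GFP-positive cells and 1.48 ± 1.13 FPKM in all cells (SD, n = 4 each). Of these 7 calls, those of Cpr76Bc, Ccp84Ad and Cpr97Ea were lost without both libraries of sort 2. Cpr97Ea was lost without both libraries of sort 1 as well, and Ccp84Ad without both of sort 3. Ccp84Ad was also lost without GFP-positive library 4 and all-cell library 3 together. The calls of Cpr76Bc, Ccp84Ad and Cpr97Ea were kept on leaving out any 1 library. Cpr62Bb, Cpr78Cc and Cpr97Eb were each lost in 5 of 8 such fits and Cpr66D in 4, in each case among others without GFP-positive library 1, GFP-positive library 2 or all-cell library 3, with limma adjusted p-values of up to 0.108, 0.0868, 0.104 and 0.0743. Not called but close to the threshold were Cpr30B (log2 fold change 1.21, limma adjusted p = 0.0550) and Cpr47Eb (1.5, limma adjusted p = 0.0640). With the sort as a block Cpr30B passed (limma adjusted p = 0.0183).

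The 4 members called lower averaged at most 10.3 FPKM in either group. Cpr49Ac (CG8502, 2R:8274472-8277562) stood at 1.27, 2.86, 3.03 and 5.74 FPKM in GFP-positive libraries, against 10.3, 10.8, 6.76 and 13.5 FPKM in all-cell libraries. The groups did not overlap (log2 fold change -1.49 ± 0.34 SE, limma adjusted p = 0.00391). The isoforms Cpr49Ac-RC and Cpr49Ac-RD both averaged less in GFP-positive cells, at 1.02 ± 0.735 FPKM and 1.96 ± 1.52 FPKM, against 4.33 ± 1.22 FPKM and 5.25 ± 1.92 FPKM in all cells (SD, n = 4 each). Cpr50Ca stood at 0.0678 to 0.223 FPKM in GFP-positive libraries, against 1.14 to 3.36 FPKM in all-cell libraries (log2 fold change -1.4, limma adjusted p = 0.0022). Its locus overlaps that of S-Lap7. The GFP-positive values of Cpr50Ca rest on few fragments, 1 fragment on a 1 kb transcript being worth an estimated 0.1075 to 0.1725 FPKM there. Cpr72Eb stood at 0.632, 1.45, 0.441 and 0 FPKM in GFP-positive libraries, against 1.21, 2.96, 4.98 and 1.45 FPKM in all-cell libraries, so that its groups overlapped. Cpr72Eb and Cpr72Ec, which lie next to each other, had log2 fold changes of -1.12 and -0.99 (limma adjusted p = 0.0334 and 0.0301). Cpr49Ac and Cpr50Ca were called on leaving out any 1 library, while Cpr72Eb and Cpr72Ec were each lost in 5 of 8 such fits, both of them without GFP-positive library 3 or all-cell library 2 (highest limma adjusted p = 0.0873 and 0.0931). With ERCC scaling 7 members were called lower, and with TMM-like scaling 2, Cpr49Ac and Cpr50Ca. Cpr50Ca and Cpr72Ec were chosen for mention after their values were seen. With at most 1 GFP-positive library at 1 FPKM, Cpr50Ca, Cpr72Eb and Cpr72Ec entered the test mainly through all cells, where they are higher.

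Groups without overlap were uncommon among the members. In 7 of the 65 tested members every GFP-positive library was above every all-cell library, against 10.2% of all genes tested. They were Cpr49Ag, Lcp9, Cpr62Bc, Cpr64Ab, Cpr76Bc, Ccp84Ae and Cpr11A. In 2 members, Cpr49Ac and Cpr50Ca, every GFP-positive library was below every all-cell library, against 34.8% of all genes tested. Of the members named here, Ccp84Ae entered the test mainly through GFP-positive cells and Cpr50Ca through all cells. Among the tested members these counts are 10.8% and 3.08%, the first close to its background.

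Within sorts, most tested members were higher in GFP-positive cells in sorts 1 to 3 and most were lower in sort 4. The GFP-positive library was above its all-cell partner for 49, 49, 45 and 25 of the 65 tested members in sorts 1 to 4, and below it for 16, 16, 18 and 40. The share of all genes that were higher was 28.5%, 31.1%, 34.3% and 26.7% in these sorts, and the share that were lower 71.5%, 68.9%, 65.5% and 73.3%. The median log2 difference of the members was 0.79, 1.4, 1.17 and -0.23 in sorts 1 to 4, and that of all genes -0.47, -0.52, -0.34 and -0.54. All 20 members called higher were higher in sorts 1, 2 and 3, and 13 of them were higher in sort 4, where 15 of the 20 had their smallest difference. The 7 that were not higher in sort 4 were Cpr51A, Lcp65Ag1, Lcp65Ag2, Lcp65Ag3, Cpr65Ea, Cpr66D and Cpr97Eb. In all 4 sorts 18 members were higher and 7 were lower, against 15.4% and 51.1% of all genes.

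**Figure D3:**
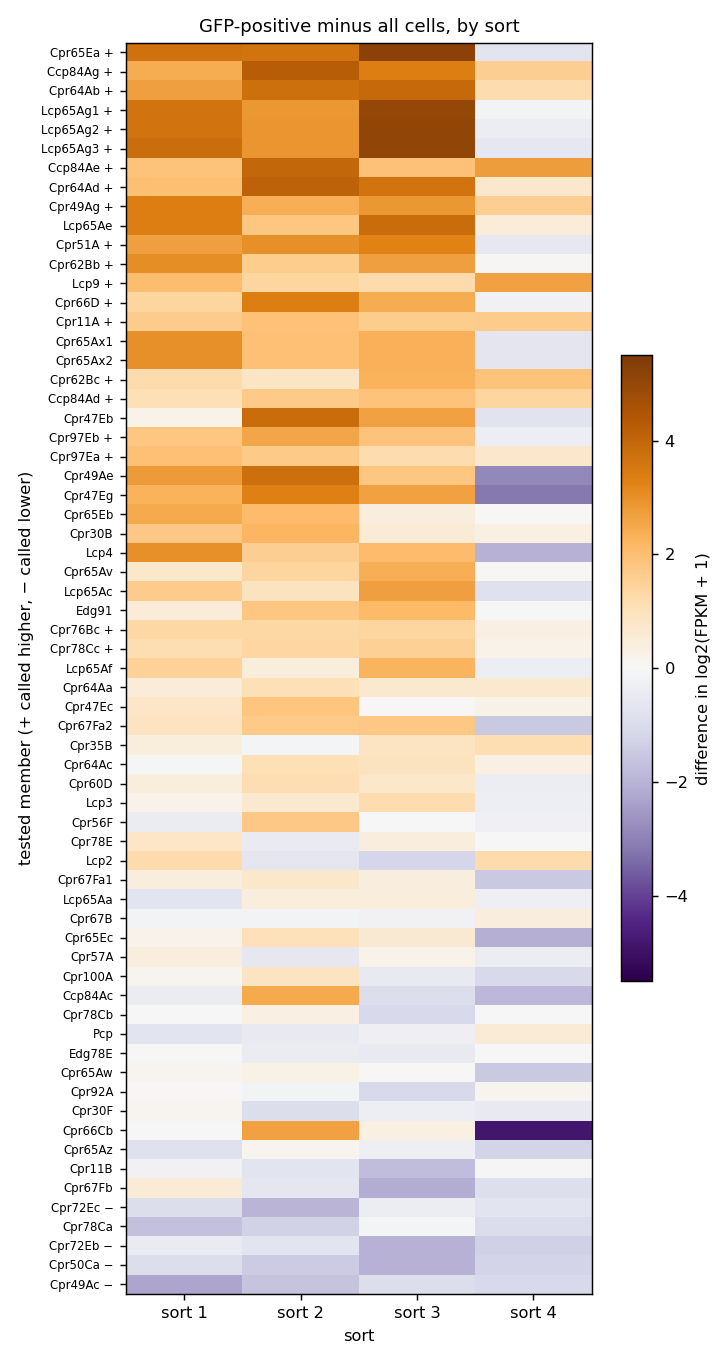
Difference in log2(FPKM + 1), GFP-positive minus all cells, for each of the 65 tested members (rows, ordered by log2 fold change) in each sort (columns), with brown for higher and purple for lower in GFP-positive cells and + or − after the names of called members. All 20 called rises are brown in sorts 1 to 3, and 7 of them are below 0 in sort 4.

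The authors' deposited table holds Cuffdiff calls for each sort, made between 2 libraries. Calls of a higher level in GFP-positive cells were given in the authors' deposited table to 21, 23, 26 and 2 tested members in sorts 1 to 4, against 5.36%, 6.28%, 6.28% and 3.95% of all genes tested here. Calls of a lower level in the authors' deposited table numbered 2, 3, 2 and 5 tested members, against 14.2%, 13.1%, 8.82% and 11.9% of all genes. The 2 called higher in sort 4 by the authors' deposited table were Cpr62Bc and Cpr11A. No member was called higher in all 4 sorts in the authors' deposited table, and 15 were called higher in 3. The matching shares of all genes were not counted, so these 2 counts have no background here. Those called lower in sort 4 in the authors' deposited table were Cpr47Eg, Cpr49Ae, Cpr50Ca, Cpr66Cb and Ccp84Ac, and 2 untested members, Lcp65Ad and Cpr92F, were called lower there as well.

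Some members that were not called were near 0 in GFP-positive library 4 and higher in the other libraries of that group. Cpr47Eg stood at 22.7, 27.9, 10.3 and 0 FPKM in GFP-positive libraries, against 3.88, 1.86, 0.819 and 8.01 FPKM in all-cell libraries, and Cpr49Ae at 18.1, 25.5, 5.31 and 0.511 FPKM in GFP-positive libraries, against 1.83, 0.942, 0.852 and 9.90 FPKM in all-cell libraries. With all libraries the log2 fold changes were 1.27 for Cpr47Eg (limma adjusted p = 0.274) and 1.36 for Cpr49Ae (limma adjusted p = 0.201). Without GFP-positive library 4 they were 2.34 for Cpr47Eg (limma adjusted p = 0.00406) and 2.18 for Cpr49Ae (limma adjusted p = 0.0186). Both genes were picked for their low values in that library, so leaving it out favours a call. Cpr66Cb stood at 8.03, 18.5, 2.99 and 0.153 FPKM in GFP-positive libraries, against 8.13, 2.10, 2.15 and 31.7 FPKM in all-cell libraries and was not called (limma adjusted p = 0.692). These 3 were chosen after their values were seen. For 12 of the 65 tested members GFP-positive library 4 was the highest of its group, against 31.1% of all genes tested. Among the 12 were Cpr35B, Cpr65Av, Cpr62Bc, Ccp84Ad and Cpr49Ac.

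On the chromosomes the members formed 12 clusters of at least 3 genes, taking neighbours no more than 50 kb apart as one cluster. These clusters held 69 members, of which 44 were tested and 14 were called higher and 3 lower, and the median log2 fold change was 1.10. Over all genes tested 11.6% were called higher and 38.7% lower, with a median of -0.47. The other 28 members lay alone or in pairs, with 21 tested, 6 called higher and 1 lower, and a median of 0.27. The difference between these sets was not tested. Members numbered 6 on 2L, 26 on 2R, 47 on 3L, 14 on 3R and 4 on X.

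**Figure D4:**
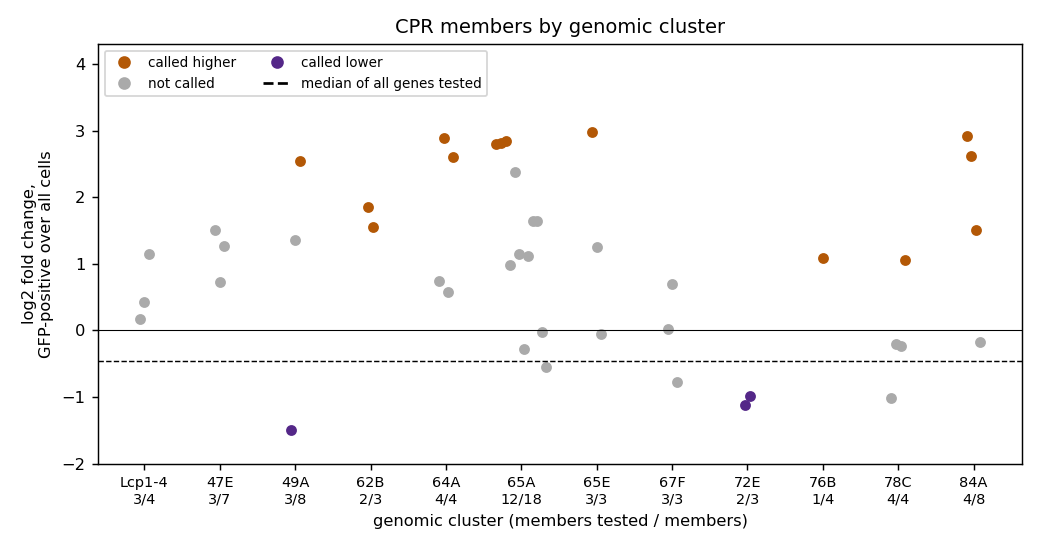
Log2 fold change of each tested member (points), GFP-positive over all cells, in the 12 genomic clusters; colours give the call, the dashed line is the median of all genes tested, and the labels give members tested and members. Clusters 49A, 62B, 64A, 65A, 65E, 76B, 78C and 84A hold members called higher, and 49A and 72E hold members called lower.

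The cluster at 65A (3L:6123485-6154689 on dm3, 31.2 kb) was the largest, with 18 members, of which 12 were tested, 3 were called higher and 0 lower. Its members summed to 630 ± 508 FPKM in GFP-positive cells and 79.3 ± 52.5 FPKM in all cells (SD, n = 4 each). The genes with the highest levels, Lcp65Ag3, Lcp65Ag2, Lcp65Ag1 and Lcp65Ae, were among the first 6 members at one end, with the lower Cpr65Au and Lcp65Af between them. Lcp65Ae stood at 39.4 ± 34.6 FPKM in GFP-positive cells and 6.40 ± 7.97 FPKM in all cells (SD, n = 4 each). Lcp65Ae had a log2 fold change of 2.38 and was not called (limma adjusted p = 0.0674), but passed with the sort as a block (limma adjusted p = 0.0042). The members beyond Lcp65Ae averaged at most 9.68 FPKM in GFP-positive cells, the level of Cpr65Ax1 and Cpr65Ax2, whose values were identical in all 8 libraries. Acp65Aa, named as an adult cuticle protein gene, averaged 1.46 FPKM in GFP-positive cells and 0.402 FPKM in all cells and was not tested.

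**Figure D5:**
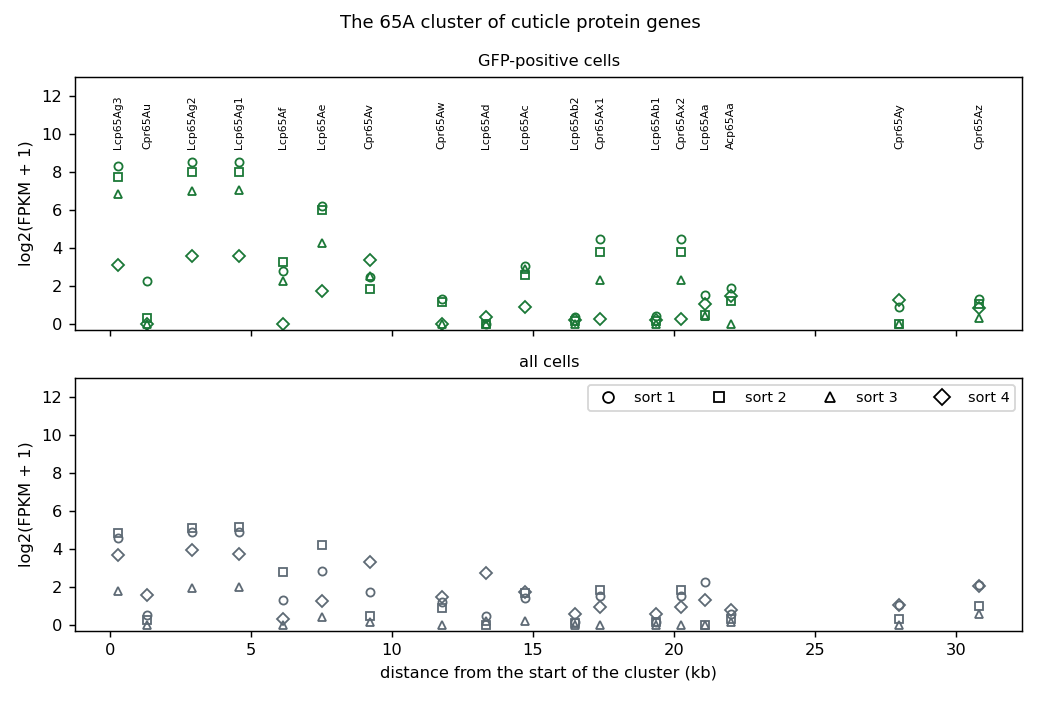
Values of log2(FPKM + 1) of the 18 members of the 65A cluster by distance from its start in kb, GFP-positive libraries in the upper and all-cell libraries in the lower panel; each point is a library and its shape gives the sort. The 3 Lcp65Ag genes at the start reach the highest values in both panels, and in sort 4 they are lower in the GFP-positive than in the all-cell library.

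One gene inside the span of this cluster that is not a member, CG13297, rose as well. It stood at 87.5, 46.2, 39.4 and 7.63 FPKM in GFP-positive libraries, against 11.9, 4.43, 3.05 and 7.43 FPKM in all-cell libraries (log2 fold change 2.31, limma adjusted p = 0.00871). The order of its GFP-positive libraries was the same as for the Lcp65Ag genes. The other tested genes within the spans of the clusters were not called higher: TpnC47D, a troponin C gene within the 47E cluster, fell by 2.13 log2 units (limma adjusted p = 4.1e-05), and CG8501 in 49A and CG43367 in 64A did not pass the test.

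In the cluster at 84A (3R:2510172-2530625) 4 of 8 members were tested and 3 were called higher, Ccp84Ag, Ccp84Ae and Ccp84Ad; the member tested and not called was Ccp84Ac (log2 fold change -0.18, limma adjusted p = 0.860). Edg84A, an ecdysone-dependent gene, averaged 0.126 FPKM in GFP-positive cells and 0.394 FPKM in all cells and was not tested. In 64A (3L:4207838-4216414) all 4 members were tested, and Cpr64Ab and Cpr64Ad were called higher. In 65E Cpr65Ea made up 96.6% of the cluster's summed GFP-positive mean, and its neighbours Cpr65Eb and Cpr65Ec were not called. In 49A (2R:8264175-8302675) Cpr49Ag was called higher and Cpr49Ac lower, 3 of its 8 members having been tested. In 72E both tested members of 3 were called lower, having entered the test mainly through all cells. The clusters of Lcp1 to Lcp4, 47E and 67F had no called member, with 3 tested in each.

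Further pairs had similar values in every library, and their fragments may be shared between copies. Lcp65Ab1 and Lcp65Ab2 differed by at most 1.80% in any library and Ccp84Aa and Ccp84Ab by at most 8.16%. Of these 4 genes 0 were tested. In all, 9 members overlap the locus of another gene: the 4 members of 64A overlap CG43367, and Cpr51A, Cpr50Ca, Pcp, Cpr56F and Cpr47Ea each overlap 1 other gene. These values are uncertain to that extent, since the use of strand in the authors' counting is not given in the sources used here.

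Members of different calls were also set side by side by gene structure, which the rule did not use. In the Ensembl annotation of a later build all 97 members were found, and 65 of the 97 have 2 exons in their longest coding transcript. The encoded proteins had a median length of 159 residues, with a range of 92 to 1231. Medians were 185.5 residues for the 20 members called higher, 376.5 for the 4 called lower, 134 for the 41 tested and not called and 175.5 for the 32 untested. Within clusters of 3 or more the median was 134 residues, and it was 207 for members alone or in pairs. These lengths are described without a test. The loci are short, with a median of 776 bases including introns and 58 under 1 kb, so that 3 fragments on a locus of median length correspond to 0.416 to 0.667 FPKM in GFP-positive and 0.319 to 0.396 FPKM in all-cell libraries. Below that floor, taken for each locus by its own length, were 12 members in all 4 GFP-positive libraries, 8 in all 4 all-cell libraries and 5 in all 8. These lengths include introns, while FPKM is scaled to the transcript, so the floor is too low for loci with long introns. The counts may therefore be too small. For these 5 members a difference was not detectable at this depth. The floor covers counting error only.

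Other genes of cuticle formation were mostly higher in GFP-positive cells. In a list of genes of chitin and cuticle assembly, 27 were tested, of which 25 rose and 0 fell in GFP-positive cells by limma, against 11.6% and 38.7% of all genes, with a median log2 fold change of 2.25. The epidermal markers dyl, mey, neo, nyo, m and y and the tracheal markers serp, verm and Gasp are on this list too. The largest rises were those of y, which is needed for dark cuticle pigment, at 4.31, and the apical zona pellucida proteins dyl at 3.86 and mey at 3.75 (limma adjusted p = 8.8e-06, 1.7e-05 and 2.2e-05). The summed FPKM of the list was 9747, 8767, 7582 and 6322 in GFP-positive libraries 1 to 4, against 1969, 1008, 1019 and 1491 in all-cell libraries 1 to 4, so that for this list every GFP-positive library was above every all-cell library. GFP-positive library 4 stood at a median of 0.764 of the mean of the other 3 for this list, at 0.341 for the 20 CPR members called higher and at 0.612 for the 65 tested members, and at 1.06 for all genes tested.

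Of 18 regulators known from cuticle formation, 11 were called higher and 2 lower, against 11.6% and 38.7% of all genes. The largest changes were those of ovo (log2 fold change 2.65, limma adjusted p = 1.5e-05), br, an ecdysone-response gene (-2.43, limma adjusted p = 0.00148), and ftz-f1, which encodes a nuclear receptor that controls Edg84A and other cuticle genes at the onset of metamorphosis (1.87, limma adjusted p = 0.00371). ftz-f1 stood at 66.1, 121, 57.1 and 21.0 FPKM in GFP-positive libraries, against 16.4, 15.7, 9.33 and 18.4 FPKM in all-cell libraries. As for many CPR members, its lowest GFP-positive value was in library 4 and its lowest all-cell value in library 3. The values of ovo, given above, did not have this order. Of the 18 regulators, 2 were lowest of their group in GFP-positive library 4. Over the list, that library stood at a median of 0.998 of the mean of the other GFP-positive libraries. All-cell library 3 stood at a median of 1.17 of the mean of the other all-cell libraries. The part of ftz-f1 in the CPR values was not tested.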

How the data were processed

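RNA-seq libraries of 4 GFP-positive and 4 all-cell samples were compared. The deposited gene and isoform tables give FPKM for each library per the file headers, although the tables' names say RPKM. The submitters' processing notes name TopHat 1.4.0, Cufflinks 1.3.0, Cuffdiff 1.3.0 and dm3. The annotation, the settings and whether strand was used: not given in the sources used here. For each sort the authors deposited q-values and calls from Cuffdiff, of which the calls are used; their fold changes were left aside, since placeholders stand in them. Loci are given on dm3 with 1-based starts. All per-sample columns were used.

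The fit was made in R 4.3.3 with limma 3.58.1 (empirical Bayes with a trend, no block) on log2(FPKM + 1), two-sided, GFP-positive over all cells. It took every fly gene that reached 1 FPKM in 4 or more of the 8 libraries, and the Benjamini-Hochberg adjustment ran over all of these, at a threshold of 0.05. On this scale the change of low genes is understated. The fit was tested on simulated data. Depth was estimated from the steps that whole fragments leave in low FPKM values, without read counts. The labels name the sort of each library, which pairs the libraries. Over genes, the residuals around the group means of the 2 libraries of a sort correlated by 0.439, 0.105, 0.411 and 0.166 in sorts 1 to 4; the highest correlation with a library of another sort was 0.274, 0.15, 0.15 and 0.274, above the same-sort value in sorts 2 and 4. The alternatives are the pseudocount, the filter, scaling, array weights, the sort as a block, the gap between clusters and leaving out libraries or sorts. Gene structure came from Ensembl release 115.

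The members and lists were chosen with earlier results of these data known. The rule for naming took up to 12 called members with the largest rise and up to 12 with the largest fall, at 5 FPKM or more in the mean of 1 group and with the same direction in all 4 sorts. It added the 6 highest members of either group, the called member with the largest change in each cluster and the 2 nearest the threshold on either side. Any other member was named with its values in view. Of the lists, 1 chitin gene is listed under 2 names and the tracheal gene tal was not matched. Promoter and protein sequences were not analysed here.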

Additional observations from a re-analysis of the deposited data

Results flagged for a closer look

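Of 44 groups of 4 values examined, namely those of each named member and of the member sums in GFP-positive and in all cells, 2 held a library far from the other 3. Chance gives about 1 in 20 such groups. Cpr62Bc stood at 36.6 FPKM in GFP-positive library 4, against 10.6 to 14.2 FPKM in the other 3 of that group. That library was the lowest of its group for 33 of the 65 tested members, so that Cpr62Bc went the opposite way. Cpr11A stood at 22.5 FPKM in all-cell library 1, against 11.5 to 13.1 FPKM in the other 3 all-cell libraries. In both genes every GFP-positive library was above every all-cell library, the value in question included.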

How the results depend on the processing

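No member called in either direction was called the opposite way under any alternative, and none of the 21 members chosen by the naming rule changed sign. Among other members given with values, Cpr66Cb and Ccp84Ac, not called, were at 0.28 and 0.39 without GFP-positive library 4, against -0.46 and -0.18 with all libraries. The counts of 20 members higher and 4 lower moved with the libraries. Leaving out 1 library gave 12 to 31 higher and 2 to 4 lower, against 9.6% to 11.5% and 31.1% to 40.3% of all genes. Leaving out 1 sort gave 7 to 31 higher and 2 to 3 lower, against 8.16% to 10.6% and 27.2% to 36.9%. In all 8 fits that left out 1 library, 12 of the rises and 2 of the falls were called. The matching share of all genes was not counted, so these counts have no background here. TMM-like scaling, quantile normalization and upper quartile scaling each left 2 members lower, with 28, 30 and 23 higher. Over all genes TMM-like scaling gave 2299 higher and 2058 lower and quantile normalization 2036 and 2561. Scaling by the ERCC sum gave 11 members higher, 7 lower and a median of 0.24, with 309 genes higher. A filter at 5 FPKM left 24 members, 1 of them called lower, and a median of 1.80, and no filter gave a median of 0.17; fewer or more low genes enter these fits. With the sort as a replicate block 28 members were higher and 5 lower and no call was lost. Beside Cpr30B and Lcp65Ae, the block added the rises of Cpr64Aa, Cpr65Av, Cpr65Ax1, Cpr65Ax2, Cpr65Eb and Edg91 and the fall of Cpr78Ca. Leaving out GFP-positive library 4 and all-cell library 3 together was chosen after seeing the data. Where not stated otherwise the cause was not tested. At this depth 5 members lay under the floor of 3 fragments, set by locus length with introns, in all 8 libraries.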
